A study of Mus musculus with 12 samples.

Results

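The Gimap genes encode a family of lymphocyte GTPases that sit side by side on mouse chromosome 6. All 8 rows of the deposited count table whose symbol belongs to the family were taken (Gimap1, Gimap3, Gimap4, Gimap5, Gimap6, Gimap7, Gimap8 and Gimap9), out of 25124 gene rows, and all 8 were among the 17612 genes with enough counts to be tested. The members were picked by symbol, but the family itself was chosen on its levels in these same 12 libraries, so its differences between groups are given as a description and are no independent evidence of a response. The RNA came from mouse brain 28 days after middle cerebral artery occlusion (MCAo), a model of ischemic stroke. The groups were lesioned (ipsilateral) hemispheres of DKK1 mice, lesioned hemispheres of wild-type mice, intact (contralateral) hemispheres of DKK1 mice and intact hemispheres of wild-type mice, with 3 libraries each. The DKK1 mice carried 3 alleles, written in the labels as Gt(ROSA)26Sortm1.1(rtTA,EGFP)Nagy, Hprttm1(tetO-Dkk1)Spdl and Tg(TCF/Lef1-lacZ)34Efu/J, and the wild-type mice were C57BL6/J. Every mouse, wild type included, had MCAo and received doxycycline at 200 mg/kg, with induction from day 3. The series title speaks of myeloid DKK1, while the allele names give an activator at ROSA26 and no driver restricted to a cell type. No group carried the alleles without doxycycline, so DKK1, the alleles and the genetic background cannot be told apart here. Ages were not used here, and nothing in the labels ties a library to an animal, so each p-value measures only the spread between these libraries, which may be partly technical.

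GIMAP proteins are GTPases of the immunity-associated nucleotide-binding protein family, whose G domain resembles that of septins and dynamins. They are found mainly in T and B lymphocytes, where they govern survival, and transcripts of several have also been found in endothelial cells. Gimap5 is a lysosomal member whose loss empties the T cell compartment of rats and mice, and it restrains the kinase GSK3 beta in T cells. Gimap3 is its closest paralogue and also supports T cell survival in mice, Gimap1 is needed for mature T and B cells in mice, Gimap4 is linked to the timing of T cell death, and Gimap6 is linked to autophagy. DKK1 is a secreted antagonist of Wnt signalling, which acts on genes through TCF/LEF factors.

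The 8 genes lay within 123.5 kb (mm10, chromosome 6, 48647361 to 48770851) in the order Gimap8, Gimap9, Gimap4, Gimap6, Gimap7, Gimap1, Gimap5 and Gimap3. Gimap6 and Gimap3 are transcribed from the minus strand and the other 6 from the plus strand. The rtTA allele at ROSA26 is carried by the same chromosome. The promoters of Gimap3, Gimap4 and Gimap7 are shown because these 3 members had the largest lesion differences in both genotypes, and that of Gimap6 because it was the most abundant member per length in all 4 groups. The sequences are RefSeq windows of 300 bases on GRCm38.p6, written 5′ to 3′ along the gene, and capitals mark matches on either strand to the ETS core AGGAAG, the RUNX core TGTGGT or the TCF/LEF core CTTTGA.
Gimap3 promoter, chr6:48770802-48771101, minus strand: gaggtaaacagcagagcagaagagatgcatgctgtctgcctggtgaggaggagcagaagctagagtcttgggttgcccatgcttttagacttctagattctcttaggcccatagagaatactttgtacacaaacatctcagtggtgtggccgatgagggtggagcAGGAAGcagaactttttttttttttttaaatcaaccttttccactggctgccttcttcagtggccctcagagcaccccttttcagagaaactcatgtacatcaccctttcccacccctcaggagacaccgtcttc
Gimap4 promoter, chr6:48684328-48684627, plus strand: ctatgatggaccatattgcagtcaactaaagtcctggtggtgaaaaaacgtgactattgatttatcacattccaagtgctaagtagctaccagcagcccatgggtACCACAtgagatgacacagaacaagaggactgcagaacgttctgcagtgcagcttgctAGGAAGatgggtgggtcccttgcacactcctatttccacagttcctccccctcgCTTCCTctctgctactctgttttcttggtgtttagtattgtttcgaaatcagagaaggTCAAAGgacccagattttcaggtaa
Gimap7 promoter, chr6:48718371-48718670, plus strand: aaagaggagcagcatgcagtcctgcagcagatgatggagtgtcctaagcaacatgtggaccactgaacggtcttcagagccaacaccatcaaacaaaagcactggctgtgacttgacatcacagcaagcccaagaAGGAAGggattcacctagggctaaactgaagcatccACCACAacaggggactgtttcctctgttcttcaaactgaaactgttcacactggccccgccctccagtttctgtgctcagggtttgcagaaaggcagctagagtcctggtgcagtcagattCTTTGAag
Gimap6 promoter, chr6:48708195-48708494, minus strand: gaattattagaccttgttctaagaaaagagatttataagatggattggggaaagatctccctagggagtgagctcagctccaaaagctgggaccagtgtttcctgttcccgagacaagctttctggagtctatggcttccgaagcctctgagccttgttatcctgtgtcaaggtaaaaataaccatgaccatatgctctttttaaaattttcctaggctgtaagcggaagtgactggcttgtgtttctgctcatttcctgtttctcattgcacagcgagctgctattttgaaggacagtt

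RefSeq held 9 such windows for the 8 members, with Gimap8 having a pair of start sites. The ETS core stood in 7 of these 9 windows, missing from Gimap6 and from 1 of the Gimap8 windows, and in 35.4% of the 32851 promoter windows of the table. The RUNX core stood in the windows of Gimap1, Gimap4 and Gimap7, against 16.8% of all windows. The TCF/LEF core stood in those of Gimap4 and Gimap7, against 16% of all windows. The marked matches did not overlap each other. The GATA core AGATAA (11.2% of all windows) and the AP-1 site TGACTCA (5.2%) stood in no member window, and TATAAA (13.6%) stood in that of Gimap6 alone. A match is a run of letters in this window and was not tested as a binding site.

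The libraries held 21209920 to 26911840 counts and 19557 to 20272 detected genes. Dkk1, the induced gene, had 32, 7 and 44 counts in the lesioned and 13, 5 and 4 in the intact hemispheres of DKK1 mice, and 0 in all 6 wild-type libraries. Along the first principal component, which carried 73.8% of the variance and ran with hemisphere, wild-type lesioned library 1 stood at 70.9, among the DKK1 lesioned libraries (62.8 to 83.8) and away from the other wild-type lesioned libraries (29.2 and 37.1). Wild-type intact library 1 stood at −41.2, away from the other wild-type intact libraries (−72.6 and −63.3). Calls that changed without this pair of libraries are given both ways. Levels are CPM, counts scaled to a common library size and corrected for composition, as mean ± SD with n = 3, and differences are log2 fold changes ± SE.

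All 8 members rose on the lesioned side in both genotypes, and in each of them the lesioned libraries lay above the intact libraries of the same genotype. The same separation was seen in 32.1% of all genes tested in DKK1 mice and in 26.5% in wild-type mice. In lesioned tissue the DKK1 libraries also lay above the wild-type libraries for all 8 members, by 1.72-fold to 2.58-fold, as in 13.3% of all genes tested. The test over all genes passed for Gimap3 and Gimap8 and not for the other 6, and it called 1.52% of all genes higher. In intact tissue Gimap8 was the 1 member whose DKK1 and wild-type libraries did not overlap, with DKK1 higher as in 5.84% of all genes tested. In whole tissue such as this, fewer cells of a type and less RNA per cell cannot be told apart. The plot of CPM in each library shows the members side by side.

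**Figure D1:**
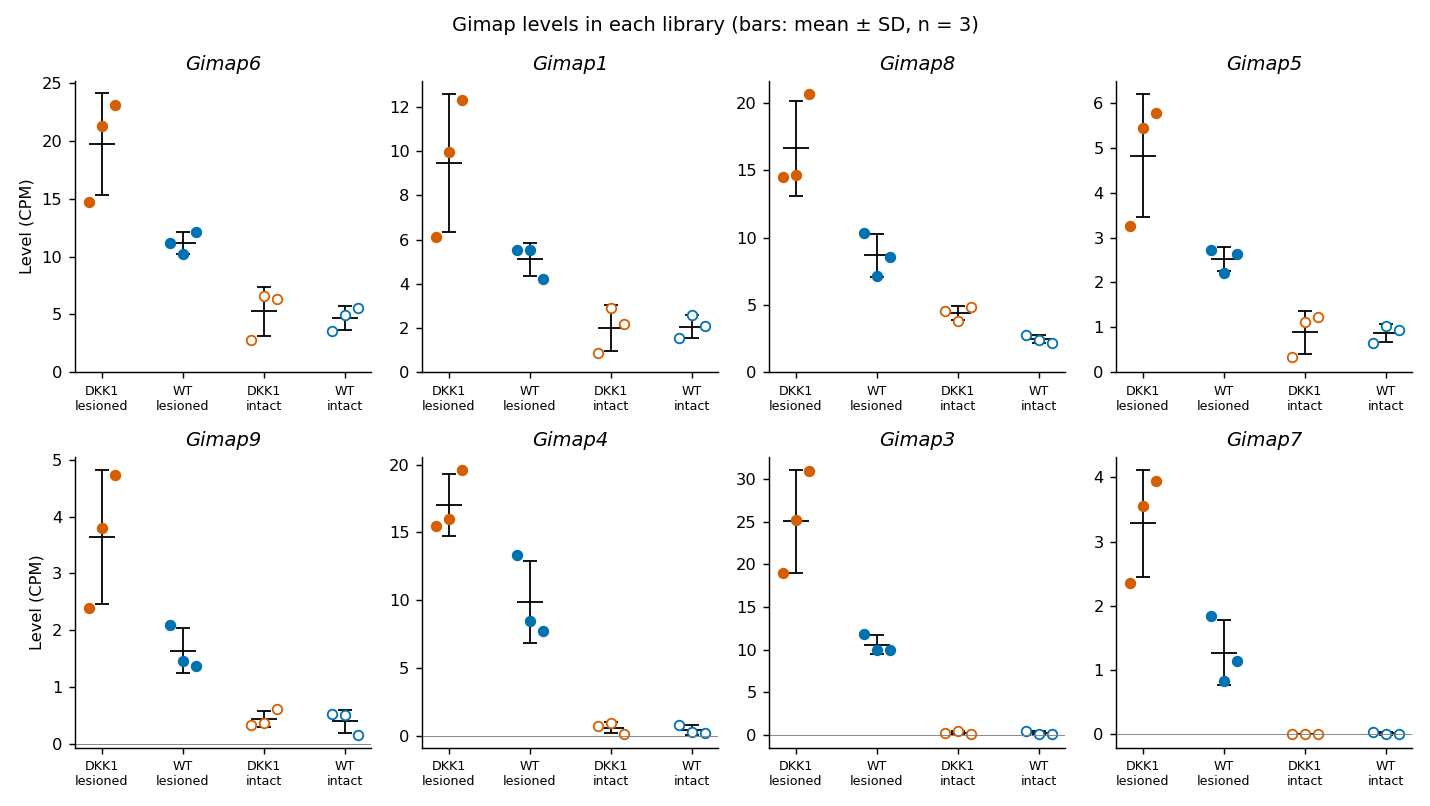
Level of each Gimap member in each library, in CPM (counts scaled to a common library size). Filled points are lesioned and open points intact hemispheres, orange DKK1 and blue wild-type (WT) mice, in the order of replicate numbers, and bars are mean ± SD (n = 3). Gimap9, Gimap4, Gimap3 and Gimap7 sat at or near 0 in intact hemispheres, where Gimap6 averaged 5.25 CPM in DKK1 mice and 4.67 CPM in WT mice.

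Gimap3 and Gimap5 are the paralogue pair linked to T cell survival. Gimap3 (NM_031247, 48764464 to 48770851, minus strand) had 19.0, 25.3 and 31.0 CPM in DKK1 lesioned hemispheres, against 11.9, 9.95 and 9.97 CPM in wild-type lesioned hemispheres. It had 0.294, 0.451 and 0.131 CPM in DKK1 intact hemispheres, against 0.488, 0.128 and 0.169 CPM in wild-type intact hemispheres, which stand for 20 counts in either group. Gimap3 was thus low in all 6 intact libraries, where the genotypes overlapped, and its lowest DKK1 lesioned library lay above its highest wild-type lesioned library. It rose on the lesioned side by 6.39 ± 0.37 in DKK1 mice (edgeR adjusted p = 1.04e-06) and by 5.27 ± 0.37 in wild-type mice (edgeR adjusted p = 1.47e-05), a value that was 6.11 without wild-type intact library 1. In lesioned tissue it rose in DKK1 mice by 1.24 ± 0.25 (edgeR adjusted p = 0.0281), a call that was lost when DKK1 lesioned library 2 or 3, or wild-type lesioned library 2 or 3, was left out, or on the deposited TPM (adjusted p = 0.108 to 0.140).

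Gimap5 (NM_175035, 48746197 to 48754200) had 3.25, 5.45 and 5.78 CPM in DKK1 lesioned hemispheres, against 2.73, 2.22 and 2.63 CPM in wild-type lesioned hemispheres. It had 0.343, 1.11 and 1.22 CPM in DKK1 intact hemispheres, against 0.638, 1.03 and 0.929 CPM in wild-type intact hemispheres. DKK1 library 1 was the lowest of its group on both sides, and the genotypes overlapped on the intact side only. Gimap5 rose on the lesioned side by 2.41 ± 0.37 in DKK1 mice (edgeR adjusted p = 0.000255) and by 1.55 ± 0.37 in wild-type mice (edgeR adjusted p = 0.00753). The wild-type call was lost without the wild-type libraries numbered 1 (1.31 ± 0.45, edgeR adjusted p = 0.0547), a setting chosen after seeing the data. The genotypes differed in lesioned tissue by 0.93 ± 0.33, which did not pass (edgeR adjusted p = 0.146). In a GENCODE annotation, 190 of the 50-base windows of Gimap3 also occurred in Gimap5 (9.06% of the Gimap3 and 9.98% of the Gimap5 windows), so some reads of this pair could be counted under the other name.

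Gimap4 and Gimap7 had, with Gimap3, the largest lesion differences of the family in both genotypes. These 3 members and Gimap9 each had fewer than 1 CPM in every intact library, as Gimap5 did in some. Gimap4 (NM_174990, 48684578 to 48692062) had 15.5, 16 and 19.6 CPM in DKK1 lesioned hemispheres, against 13.3, 8.52 and 7.76 CPM in wild-type lesioned hemispheres. It had 0.735, 0.984 and 0.174 CPM in DKK1 intact hemispheres, against 0.863, 0.299 and 0.253 CPM in wild-type intact hemispheres. The wild-type library numbered 1 was the highest of its group on both sides, and it came close to the lowest DKK1 library in lesioned tissue. Gimap4 rose on the lesioned side by 4.74 ± 0.45 in DKK1 mice (edgeR adjusted p = 1.05e-05) and by 4.34 ± 0.46 in wild-type mice (edgeR adjusted p = 6.62e-05), or by 5.13 without wild-type intact library 1. Its difference between genotypes in lesioned tissue, 0.79 ± 0.34, did not pass (edgeR adjusted p = 0.218) but did without the wild-type libraries numbered 1 (1.06 ± 0.27, edgeR adjusted p = 0.0208).

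Gimap7, whose human counterpart speeds GTP hydrolysis by another member, was the scarcest of the family in intact tissue. It (NM_146167, 48718621 to 48724636) had 60, 86 and 106 counts in DKK1 lesioned hemispheres (2.35, 3.55 and 3.95 CPM), against 49, 21 and 30 counts in wild-type lesioned hemispheres (1.83, 0.832 and 1.14 CPM). It had 0 counts in all 3 DKK1 intact libraries, and 1, 0 and 0 counts in the wild-type intact libraries. Nearly all reads of Gimap7 thus came from lesioned tissue, with every DKK1 lesioned library above every wild-type lesioned library. In DKK1 mice it was at least 74.3-fold higher on the lesioned side, against a floor of 3 counts over the intact group (edgeR adjusted p = 1.56e-05). In wild-type mice the ratio of lesioned to intact levels was 94.2, with an exact 95% counting interval of 16.5 to 3760 (edgeR adjusted p = 0.000237), and the intact count came from wild-type intact library 1 alone. The bound and the interval cover counting error only. In lesioned tissue the genotypes differed by 1.37 ± 0.36, which did not pass in edgeR (adjusted p = 0.0801) but passed in DESeq2 (adjusted p = 0.0409) and limma-voom (adjusted p = 0.0297). It also passed in edgeR without DKK1 lesioned library 1 (adjusted p = 0.0489), wild-type lesioned library 1 (adjusted p = 0.0175) or both wild-type libraries numbered 1 (1.73 ± 0.34, adjusted p = 0.0125).

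Gimap8, a large member with several G domains, was the 1 member whose DKK1 and wild-type libraries did not overlap on either side, although only the lesioned side passed. It (NM_212486, 48647361 to 48660875) had 14.5, 14.7 and 20.7 CPM in DKK1 lesioned hemispheres, against 10.3, 7.13 and 8.56 CPM in wild-type lesioned hemispheres. It had 4.56, 3.81 and 4.84 CPM in DKK1 intact hemispheres, against 2.78, 2.40 and 2.20 CPM in wild-type intact hemispheres. Every DKK1 library thus lay above every wild-type library of the same hemisphere. In lesioned tissue Gimap8 rose in DKK1 mice by 0.94 ± 0.18 (edgeR adjusted p = 0.0228), a call that was lost without DKK1 lesioned library 3, wild-type lesioned library 2 or wild-type lesioned library 3 (adjusted p = 0.0941 to 0.109). In intact tissue the difference was 0.84 ± 0.20, with an unadjusted p of 0.00137 in edgeR that did not pass over all genes (adjusted p = 0.112) and did in DESeq2 (adjusted p = 0.0232). The lesion difference of Gimap8 was 1.92 ± 0.19 in DKK1 mice and 1.82 ± 0.20 in wild-type mice, and the difference between them was 0.10 ± 0.27 (edgeR adjusted p = 0.938).

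Gimap6 (NM_153175, 48701583 to 48708244, minus strand) had 14.8, 21.3 and 23.1 CPM in DKK1 lesioned hemispheres, against 11.2, 10.2 and 12.1 CPM in wild-type lesioned hemispheres. It had 2.79, 6.60 and 6.37 CPM in DKK1 intact hemispheres, against 3.53, 4.92 and 5.57 CPM in wild-type intact hemispheres. The intact groups overlapped, and DKK1 library 1 was the lowest of its group on both sides. Gimap6 rose on the lesioned side by 1.90 ± 0.29 in DKK1 mice (edgeR adjusted p = 0.000248) and by 1.26 ± 0.29 in wild-type mice (edgeR adjusted p = 0.00583). In lesioned tissue the genotypes differed by 0.82 ± 0.27, which did not pass (edgeR adjusted p = 0.123) and passed in limma-voom with the replicate number as a random block (adjusted p = 0.0458).

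Gimap1 (NM_175860, 48739047 to 48743795) had 6.11, 9.98 and 12.3 CPM in DKK1 lesioned hemispheres, against 5.53, 5.55 and 4.22 CPM in wild-type lesioned hemispheres. It had 0.882, 2.91 and 2.18 CPM in DKK1 intact hemispheres, against 1.54, 2.57 and 2.07 CPM in wild-type intact hemispheres. DKK1 library 1 was again the lowest of its group on both sides. Gimap1 rose on the lesioned side by 2.23 ± 0.37 in DKK1 mice (edgeR adjusted p = 0.000462) and by 1.31 ± 0.37 in wild-type mice (edgeR adjusted p = 0.0161). The wild-type call was lost without wild-type intact library 1 (adjusted p = 0.0516) and without both wild-type libraries numbered 1 (adjusted p = 0.108). In lesioned tissue the genotypes differed by 0.89 ± 0.34, which did not pass (edgeR adjusted p = 0.169).

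Gimap9 (NM_174960, 48676135 to 48678704) had 2.39, 3.80 and 4.73 CPM in DKK1 lesioned hemispheres, against 2.09, 1.47 and 1.37 CPM in wild-type lesioned hemispheres. It had 0.343, 0.369 and 0.610 CPM in DKK1 intact hemispheres, against 0.525, 0.513 and 0.169 CPM in wild-type intact hemispheres. DKK1 lesioned library 1 lay just above wild-type lesioned library 1, and the intact groups overlapped. Gimap9 rose on the lesioned side by 3.03 ± 0.40 in DKK1 mice (edgeR adjusted p = 9.29e-05) and by 2.01 ± 0.41 in wild-type mice (edgeR adjusted p = 0.00317). In lesioned tissue the genotypes differed by 1.14 ± 0.34, which did not pass (edgeR adjusted p = 0.0993). It passed without DKK1 lesioned library 1 (adjusted p = 0.0443), wild-type lesioned library 1 (adjusted p = 0.0378) or both wild-type libraries numbered 1 (1.36 ± 0.36, edgeR adjusted p = 0.0262).

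Counted over the family, 8 of 8 members were called higher on the lesioned side in DKK1 mice, where edgeR called 27.5% of all genes tested higher and 22.6% lower. In wild-type mice 8 of 8 were called higher, where 21.2% of all genes tested were called higher and 15.9% lower. The median log2 lesion difference of the members, with Gimap7 at its bound or ratio, was 2.72 in DKK1 mice and 1.92 in wild-type mice, while the medians over all genes tested were 0.0118 in DKK1 mice and 0.00639 in wild-type mice. All 8 members had lesioned libraries above the intact ones without overlap, as did 32.1% of all genes in DKK1 mice and 26.5% in wild-type mice. Since these values chose the family, nothing is read from those shares.

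Between genotypes in lesioned tissue, 2 of 8 members (Gimap3 and Gimap8) were called higher and 0 lower, where edgeR called 1.52% of all genes higher and 0.846% lower. All 8 had an unadjusted p under 0.05, as had 3680 of the 17612 genes tested, and in all 8 the DKK1 libraries lay above the wild-type ones, as in 13.3% of all genes. The median member difference was 0.94, against 0.02 over all genes tested. The count of called members hung on single libraries. It was 0 without DKK1 lesioned library 3, wild-type lesioned library 2 or wild-type lesioned library 3, 1 without DKK1 lesioned library 2, and 4 without DKK1 lesioned library 1 or wild-type lesioned library 1. It was 5 without both wild-type libraries numbered 1, and 4 (Gimap3, Gimap6, Gimap7 and Gimap8) with the replicate number as a random block in limma-voom, against 3 in limma-voom with no block.

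In intact tissue 0 of 8 members were called by edgeR, where 0.88% of all genes were called in either direction, while 1 member (Gimap8) had an unadjusted p under 0.05 and DESeq2 called 1. The same member was the 1 of 8 whose DKK1 libraries all lay above the wild-type ones, as did those of 5.84% of all genes. The differences of Gimap1, Gimap3, Gimap4, Gimap5, Gimap6 and Gimap9 ran from −0.03 to 0.39 with an adjusted p of 1 each, and no fold is given for Gimap7, which had 1 count in all 6 libraries together. The lesion difference was larger in DKK1 than in wild-type mice by 0.10 (Gimap8) to 1.12 ± 0.64 (Gimap3) for the 7 members with counts in intact tissue. None of the 8 passed the interaction test in edgeR (0 at an unadjusted p under 0.05, lowest adjusted p = 0.603), and 0 passed in DESeq2, where edgeR called 0.00568% of all genes. A larger lesion difference of the family in DKK1 mice was therefore not detectable at this depth and number of libraries.

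**Figure D2:**
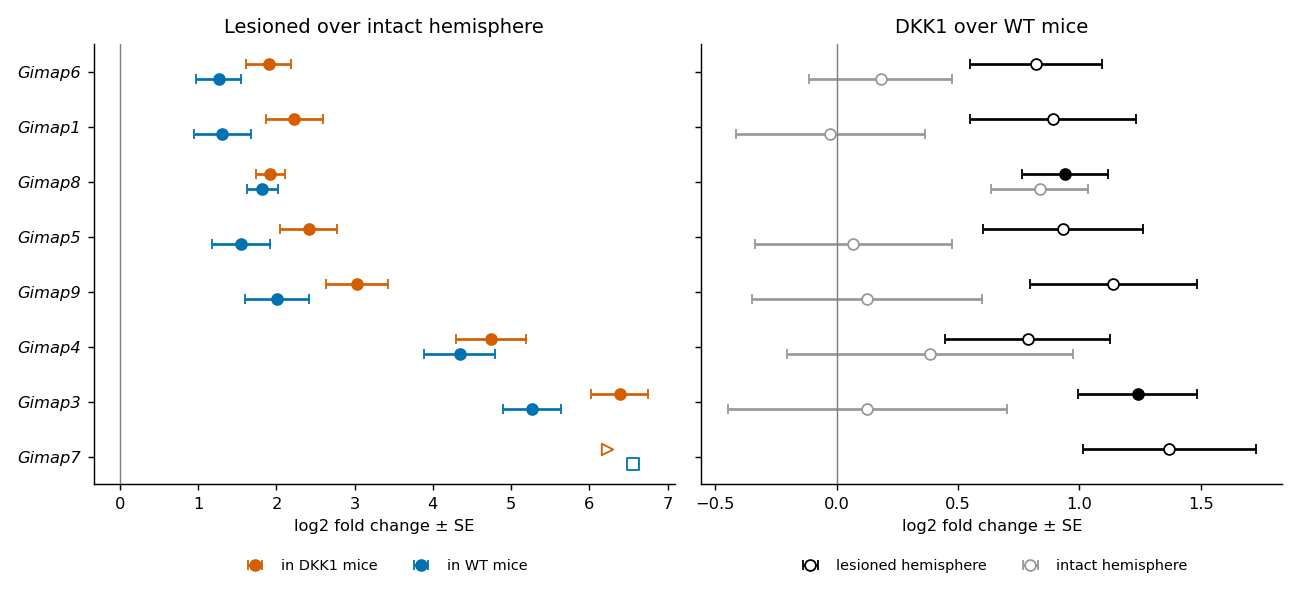
Log2 fold change ± SE of each Gimap member, for lesioned over intact hemispheres (left) and for DKK1 over wild-type (WT) mice (right). Filled points passed an edgeR adjusted p of 0.05 and open points did not, except that for Gimap7 in the left panel the open triangle is a lower bound and the open square a ratio of counts, and its intact difference is not drawn. In the right panel the lesioned differences lie between 0.79 and 1.37, and Gimap8 is the 1 member whose intact difference lies near its lesioned one.

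Levels of different members were compared per kilobase of transcript. In DKK1 lesioned tissue Gimap6 (12.3 ± 2.74 CPM per kb), Gimap3 (11.7 ± 2.81) and Gimap4 (9.43 ± 1.25) led, each overlapping its neighbour in that order. They were followed by Gimap1 (6.34 ± 2.09) and Gimap8 (4.57 ± 0.973), and then by Gimap9 (2.64 ± 0.856), Gimap7 (2.60 ± 0.659) and Gimap5 (2.49 ± 0.709), which overlapped. The libraries of Gimap4 and Gimap1 did not overlap, and neither did those of Gimap8 and Gimap9. In wild-type lesioned tissue the same 3 members led, with Gimap6 at 6.95 ± 0.584, Gimap4 at 5.47 ± 1.67 and Gimap3 at 4.95 ± 0.511 CPM per kb. Gimap7 was the lowest there at 1.0 ± 0.405 CPM per kb, overlapping Gimap9 at 1.19 ± 0.285 CPM per kb.

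In intact tissue the order was different. Gimap6 led in DKK1 mice (3.27 ± 1.33 CPM per kb) and in wild-type mice (2.91 ± 0.650 CPM per kb), followed by Gimap1 (1.33 ± 0.688 in DKK1 and 1.38 ± 0.344 in wild-type mice) and Gimap8 (1.21 ± 0.146 and 0.674 ± 0.0811). The members that reached the leading places in lesioned tissue, Gimap3 and Gimap4, were at 0.137 ± 0.0749 and 0.350 ± 0.230 CPM per kb in DKK1 mice and at 0.122 ± 0.0921 and 0.261 ± 0.188 CPM per kb in wild-type mice. In wild-type intact tissue the libraries of Gimap6, Gimap1, Gimap8 and Gimap5 did not overlap from each member to the next, while in DKK1 intact tissue Gimap6, Gimap1 and Gimap8 overlapped in turn.

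As shares of the summed family level per kb, Gimap3, Gimap4 and Gimap7 together made up 45.9% ± 2.12 in DKK1 and 42.5% ± 3.69 in wild-type lesioned tissue, but 7.55% ± 5.09 in DKK1 and 6.83% ± 5.82 in wild-type intact tissue (SD, n = 3). Gimap6 alone made up 23.6% ± 1.26 in DKK1 and 26.3% ± 3.81 in wild-type lesioned tissue, against 45% ± 6.03 in DKK1 and 47.4% ± 7.46 in wild-type intact tissue. The make-up thus changed with the hemisphere. In lesioned tissue, Gimap3 held 22.2%, 22.3% and 22.9% of the family in DKK1 libraries, against 18.0%, 19.2% and 18.7% in wild-type libraries. Its shares thus did not overlap between genotypes, whereas those of every other member did. This separation of a single member was not tested. The 3 members were grouped after their values were seen, so their joint share carries no test.

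**Figure D3:**
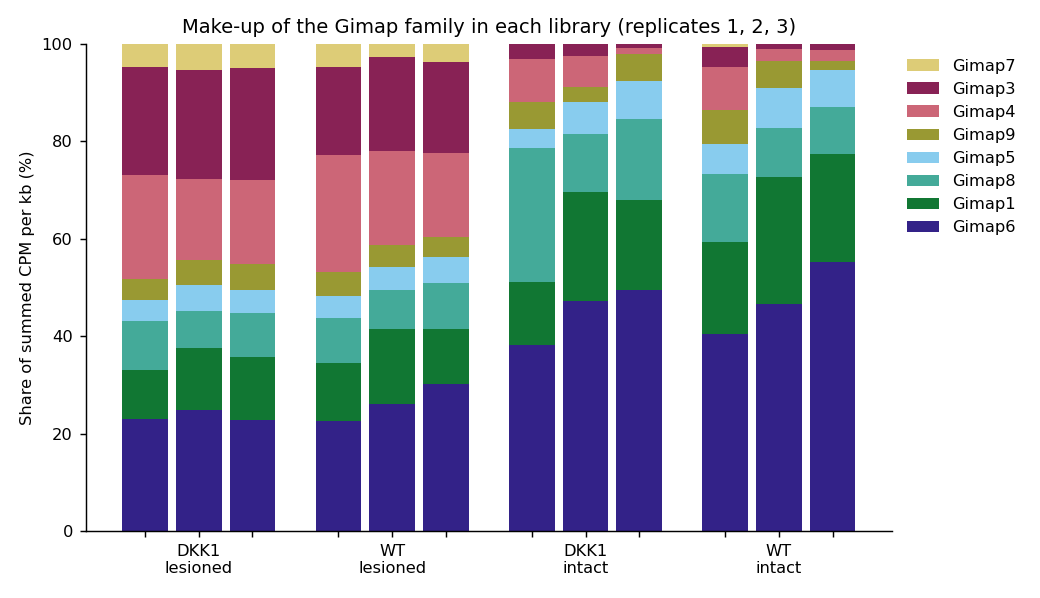
Share of each Gimap member in the family's summed CPM per kb of transcript, in percent, with 1 bar for each library in the order of replicate numbers. Gimap3, Gimap4 and Gimap7 (the top 3 colours) filled 39.6% to 48.3% of each bar in lesioned hemispheres and 1.98% to 13.5% in intact hemispheres.

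The family was set beside markers of the cell types the tissue could hold. The T cell receptor chains Cd3d, Cd3e and Cd3g, summed, reached 9.40 ± 0.610 CPM in DKK1 and 5.10 ± 2.05 CPM in wild-type lesioned tissue, against 0.236 ± 0.170 CPM in DKK1 and 0.197 ± 0.128 CPM in wild-type intact tissue (719, 401, 16 and 15 counts in that order of groups). The 8 Gimap members summed to 99.6 ± 21.7 CPM in DKK1 and 50.8 ± 7.0 CPM in wild-type lesioned tissue, against 13.9 ± 3.44 CPM in DKK1 and 11.2 ± 0.739 CPM in wild-type intact tissue. These 3 chains were thus near 0 in intact tissue while the family as a whole was not. Other markers of the T cell list were not near 0 there, such as Cd247, another chain of the T cell receptor complex. Cd247 stood at 11.8 CPM in DKK1 and 13.1 CPM in wild-type lesioned tissue, against 10.7 CPM in DKK1 and 10.9 CPM in wild-type intact tissue.

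The sum of Gimap3, Gimap4 and Gimap7 was 4.05, 4.43 and 6.05 times the Cd3 sum in DKK1 lesioned libraries, and 3.63, 4.55 and 5.22 times in wild-type lesioned libraries. In intact libraries it was 3.50, 3.89 and 7.0 times the Cd3 sum in DKK1 mice and 4.1, 5.0 and 2.5 times in wild-type mice. That ratio stayed between 2.5 and 7.0 over all 4 groups, while both sums differed greatly between hemispheres. The sum of the other 5 members was 4.52, 5.46 and 7.39 times the Cd3 sum in DKK1 lesioned libraries and 4.28, 6.27 and 7.99 times in wild-type lesioned libraries. In intact libraries it was 30.3, 40.1 and 349 times the Cd3 sum in DKK1 mice and 26.7, 134 and 64.7 times in wild-type mice, above every lesioned library. The Cd3 genes and this split of the family were picked after the values were seen. Both sums were low in intact tissue when they were picked, so the steadiness of their ratio carries no test. The intact ratios also rest on few counts. In lesioned libraries the 8-member sum was 0.668 to 1.12 times the sum of the whole T cell list. It was 0.156 to 0.265 times that sum in intact libraries. The part of T cell number in the family's differences was not tested.

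**Figure D4:**
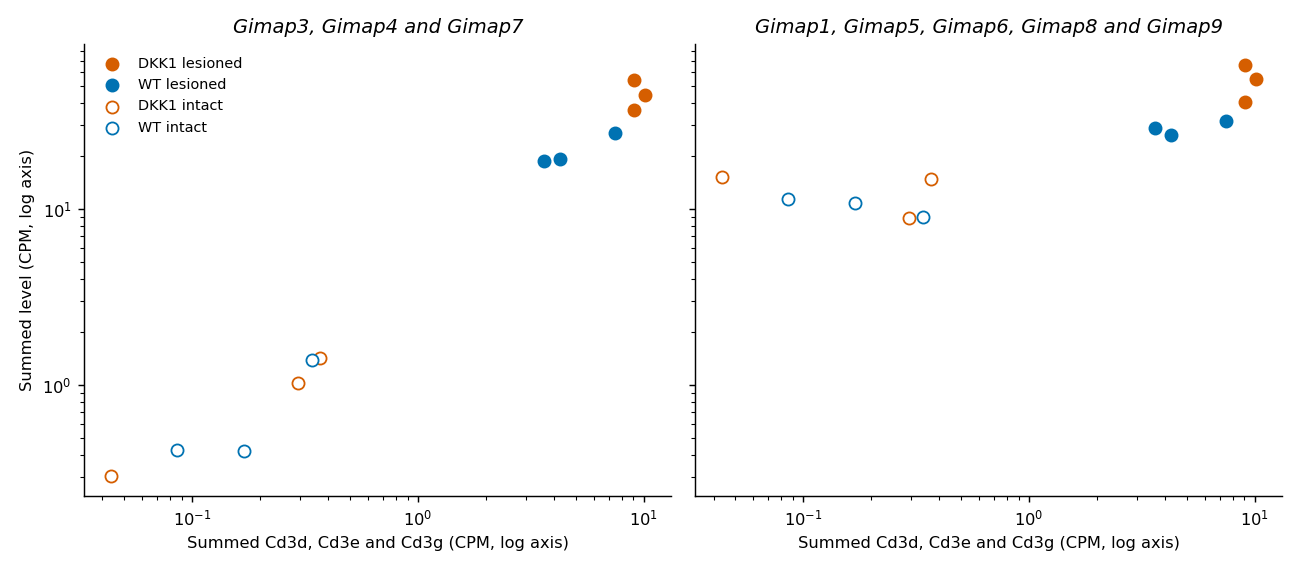
Summed CPM of Gimap3, Gimap4 and Gimap7 (left) and of the other 5 members (right) against the summed CPM of Cd3d, Cd3e and Cd3g, with 1 point per library and log axes. Filled points are lesioned and open points intact hemispheres, orange DKK1 and blue wild-type (WT) mice. On the left the intact points fall to 1.43 CPM or less as the Cd3 sum falls, while on the right they stay between 8.92 and 15.2 CPM. The Cd3 genes and the split of the family were picked after their values were seen.

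Over whole marker lists, 13 of 18 T cell markers rose and 1 fell on the lesioned side in DKK1 mice (median 3.08), and 14 rose and 1 fell in wild-type mice (median 2.61). The marker that fell was Cd4, at 18.8 CPM in DKK1 and 14.9 CPM in wild-type lesioned tissue, against 38.5 CPM in DKK1 and 41.4 CPM in wild-type intact tissue, so the T cell list sum, 60.9 to 113 CPM over the lesioned and 58.1 to 74.7 CPM over the intact libraries, was not specific to T cells. Of the T cell markers, Ubash3a alone had 0 counts over a group, the wild-type intact one. All 10 B and plasma cell markers rose in both genotypes (medians 6.85 in DKK1 and 5.15 in wild-type mice), with sums of 147 to 266 CPM in DKK1 and 83.0 to 128 CPM in wild-type lesioned libraries, against 3.31 to 4.75 CPM in DKK1 and 3.38 to 7.47 CPM in wild-type intact libraries. Blk, a kinase of B cells, had 0 counts over the DKK1 intact group. All 9 tested NK and cytotoxic markers also rose in both, with sums of 28.7 to 38.0 CPM in DKK1 and 15.3 to 33.6 CPM in wild-type lesioned libraries, against 1.57 to 2.09 CPM in DKK1 and 1.22 to 2.59 CPM in wild-type intact libraries.

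Between genotypes in lesioned tissue, 1 of 18 T cell markers rose in DKK1 mice (Cd8b1, a chain of the CD8 co-receptor, 1.87 ± 0.43, edgeR adjusted p = 0.0449), with a list median of 0.70. Cd3e differed by 0.99 ± 0.24 (edgeR adjusted p = 0.0529). Of the B and plasma cell markers 2 of 10 rose, Ms4a1 (CD20, 1.53 ± 0.28) and the B cell factor Pax5 (1.5 ± 0.32), with a median of 1.19. None of the 9 tested NK and cytotoxic markers passed in edgeR (1 at an unadjusted p under 0.05, median 0.70). The 3 lymphocyte lists thus had medians of 0.70 to 1.19 beside the family's 0.94. Medians of the myeloid lists were 0.615 (border macrophage and monocyte), 0.291 (homeostatic microglia), 0.261 (neutrophil) and 0.221 (dendritic cell). The part of any of these cells in the Gimap differences was not tested.

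Endothelial markers, the other class in which Gimap transcripts are known, differed far less between hemispheres. Of 15, 9 rose on the lesioned side in DKK1 mice (median 0.45) and 4 in wild-type mice (median 0.18), and their sum was 662 to 768 CPM in DKK1 and 607 to 625 CPM in wild-type lesioned libraries, against 482 to 485 CPM in DKK1 and 494 to 538 CPM in wild-type intact libraries. Between genotypes in lesioned tissue Pecam1 alone of the 15 rose (0.51 ± 0.08, edgeR adjusted p = 0.00882, median of the list 0.19), and in intact tissue 0 passed in edgeR (1 at an unadjusted p under 0.05). In intact tissue the list median was −0.0792, and the endothelial sum of every DKK1 library lay below that of every wild-type library. The part of endothelial cells in the Gimap differences was not tested. Homeostatic microglia markers also rose on the lesioned side (8 of 9 in DKK1 and 7 of 9 in wild-type mice, medians 1.71 and 1.23). So did border macrophage and monocyte markers (8 of 10 in each, medians 2.78 and 2.09). Dendritic cell markers rose as well (6 and 5 of 8, medians 2.92 and 2.33). The tested neutrophil markers did too (4 of 4 in each, medians 3.05 and 2.97). In lesioned tissue 0 of each of these lists passed between genotypes in edgeR (1 to 3 of each at an unadjusted p under 0.05). Over all libraries the Gimap sum was 0.578 to 1.25 times the border macrophage and monocyte sum and 0.617 to 1.24 times the neutrophil sum. It was 0.341 to 1.24 times the dendritic cell sum and 0.0244 to 0.122 times the microglia sum. Of 6 erythrocyte markers 1 rose in each genotype, and neuron markers fell (8 of 8 in DKK1 and 7 of 8 in wild-type mice).

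The lists of genes that work with the family, like the marker lists, were drawn up with earlier results of these libraries known. Among 11 genes of the BCL2 family and of the GSK3 axis, through which GIMAP5 acts, 6 rose and 2 fell on the lesioned side in DKK1 mice (median 0.17) and 4 rose and 2 fell in wild-type mice (median 0.10). Bcl2l11, which encodes the death inducer BIM, rose by 2.07 ± 0.21 in DKK1 and by 1.39 ± 0.20 in wild-type mice. In lesioned tissue 1 of the 11 rose in DKK1 mice, the death effector Bax (0.35 ± 0.07, edgeR adjusted p = 0.0305). Of 9 genes of naive lymphocyte survival and homing, 5 rose and 1 fell in DKK1 mice (median 0.41). In wild-type mice 3 rose and 1 fell (median 0.28). Their sum was 410 to 428 CPM in DKK1 lesioned libraries, against 369 to 403 CPM in DKK1 intact ones. In wild-type mice it overlapped, at 376 to 412 CPM in lesioned and 381 to 433 CPM in intact libraries. Il7r, the receptor for the survival cytokine interleukin-7, rose by 5.71 ± 0.59 in DKK1 and by 4.06 ± 0.55 in wild-type mice. None of the 9 passed between genotypes in lesioned tissue in edgeR (3 at an unadjusted p under 0.05).

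Of 11 lymphocyte transcription factors, 10 rose on the lesioned side in DKK1 mice (median 2.75) and 9 in wild-type mice (median 2.22). Runx1, of the family that reads the RUNX core, rose by 4.20 ± 0.29 in DKK1 and by 3.18 ± 0.28 in wild-type mice. In lesioned tissue 1 of the 11 rose in DKK1 mice, Ikzf3, a factor of B and T cells (1.17 ± 0.25, edgeR adjusted p = 0.0366). Another GTPase family, the interferon-inducible Gbp and Irg genes, rose in 14 of 14 members in DKK1 mice (median 2.44) and in 13 of 14 in wild-type mice (median 1.74). In lesioned tissue their median difference between genotypes was 0.55 and 0 passed in edgeR (2 at an unadjusted p under 0.05). Of 10 genes of a list named pan-leukocyte, 10 rose in DKK1 and 9 in wild-type mice, and Ltb (1.39 ± 0.26) and Coro1a (0.29 ± 0.06) rose in DKK1 lesioned tissue. Coro1a was also abundant in intact tissue, at 87.5 CPM in DKK1 and 88.7 CPM in wild-type mice.

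Genes around the cluster did not share its pattern as a block. Within 500 kb of the outermost members stood 25 other genes of the count table, of which 18 were tested. On the lesioned side 4 rose and 5 fell in DKK1 mice and 5 rose and 4 fell in wild-type mice (medians 0.05 in each). Of all genes tested, 27.5% rose and 22.6% fell in DKK1 mice, and 21.2% rose and 15.9% fell in wild-type mice. Of the neighbours, 0 passed in either genotype comparison or in the interaction in edgeR. The nearest tested gene before the cluster, AI854703, 13.7 kb away, fell by 0.49 ± 0.11 in DKK1 and by 0.40 ± 0.11 in wild-type mice. The nearest tested gene after it, Tmem176b, a membrane protein of myeloid and dendritic cells 63.0 kb away, rose by 1.89 ± 0.14 in DKK1 and by 1.47 ± 0.14 in wild-type mice. Its partner Tmem176a rose by 2.0 ± 0.21 in DKK1 and by 1.52 ± 0.21 in wild-type mice. Gpnmb, a macrophage glycoprotein gene, rose by 7.05 ± 0.79 in DKK1 and by 4.4 ± 0.65 in wild-type mice. Rarres2, which encodes the chemoattractant chemerin, rose by 1.27 ± 0.15 in DKK1 and by 0.70 ± 0.15 in wild-type mice.

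The other neighbours that passed did so by small amounts. Atp6v0e2 fell by 0.31 ± 0.07 in DKK1 and by 0.29 ± 0.07 in wild-type mice, and Krba1 fell by 0.25 ± 0.05 in DKK1 and by 0.18 ± 0.05 in wild-type mice. Repin1 (−0.19 ± 0.07) and Igf2bp3 (−0.44 ± 0.16) fell in DKK1 mice, while in wild-type mice Zfp775 fell (−0.30 ± 0.11) and Zfp862-ps rose (0.32 ± 0.08).

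**Figure D5:**
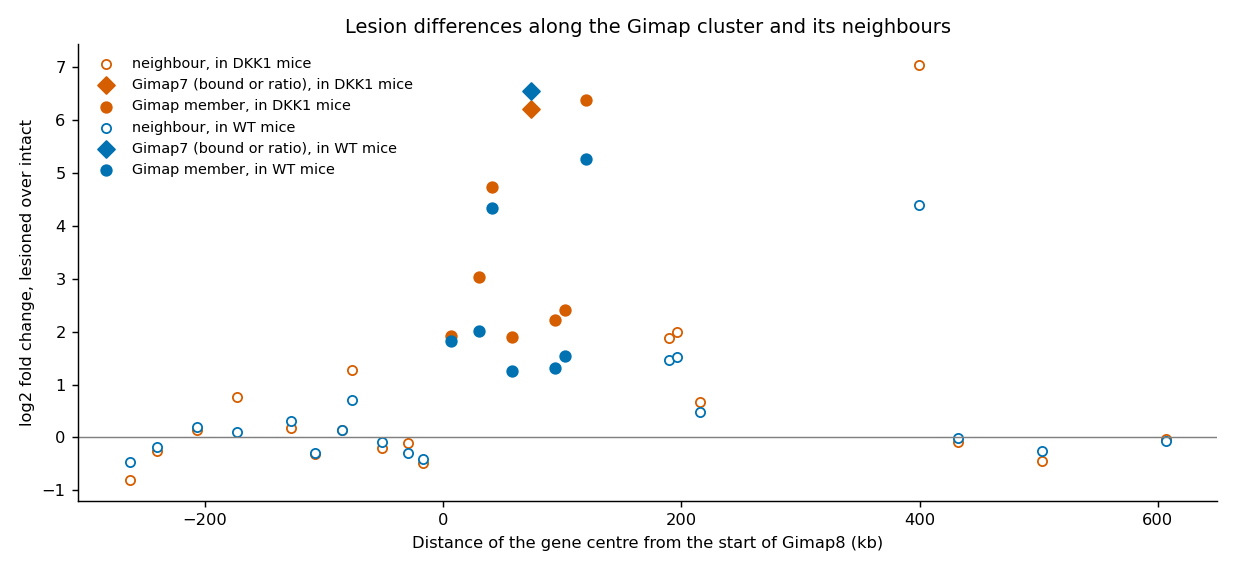
Log2 fold change of lesioned over intact hemispheres for the 8 Gimap members (filled) and the 18 tested neighbours within 500 kb (open), against the distance of each gene's centre from the start of Gimap8 in kb, orange in DKK1 and blue in wild-type (WT) mice. Diamonds are Gimap7, drawn at its lower bound in DKK1 mice and its count ratio in WT mice. The members lie at 1.26 or more and most neighbours near 0, apart from Tmem176b, Tmem176a, Rarres2 and Gpnmb.

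The family's mean profile over the 12 libraries was compared with every other gene tested, by the root mean square difference between centred log2 CPM values (prior 0.081 CPM). The 10 most alike of 17604 genes were Gbp6 (0.195), Pdgfrl (0.200), 5830428M24Rik (0.207), Arhgap30 (0.213), C2 (0.217), Icam1 (0.232), Ikbke (0.233), Slc37a2 (0.240), Spi1 (0.240) and Evi2b (0.241), against a median of 1.58 over all genes. The members themselves stood at 0.460 (Gimap9) to 1.34 (Gimap3) from their own mean. Each of the 10 rose on the lesioned side in both genotypes, and C2, a complement protein, rose in DKK1 lesioned tissue as well (1.07 ± 0.24, edgeR adjusted p = 0.0466). Gbp6, an interferon-inducible GTPase, rose by 3.20 ± 0.30 in DKK1 and by 2.85 ± 0.31 in wild-type mice and differed between genotypes in lesioned tissue by 0.83 ± 0.27 (edgeR adjusted p = 0.116). The likeness is a description over libraries that differ most by hemisphere.

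A few counts are uncertain at the level of reads. GENCODE places a readthrough gene, Gm28053, over Gimap7, Gimap1 and Gimap5 on the same strand, and an antisense gene, Gimap1os, over Gimap1. Neither has a row in the count table, and whether the counting used strand is not given in the sources used here. Of the 50-base windows of each transcript, 14% in Gimap1, 15.1% in Gimap5, 9.83% in Gimap3 and 2.62% in Gimap7 also occurred in another gene, and 0% in Gimap4, Gimap6, Gimap8 and Gimap9. These windows are of GENCODE transcripts, which differ in length from the counted transcripts for every member. Counted bases outside them were not checked. The members whose GENCODE windows were unique thus include Gimap8, called between genotypes in lesioned tissue, and Gimap4 and Gimap6, which were not.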

How the data were processed

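The members and gene lists were chosen with earlier results of these data known. RNA extraction used Qiazol with miRNeasy micro columns and DNase, and library construction the NEBNext Ultra II directional chemistry, per the labels' protocols. STAR 2.7.0f, HOMER 4.11, DESeq2 and mm10 are named per the submitters' processing notes, without their settings. The authors deposited raw counts with 1 RefSeq transcript per gene, and TPM used here as an alternative (log2 with a pseudocount of 0.1, limma-trend); 7 of 8 members have the same transcript in both tables, and Gimap4 does not. Grouping and numbering of the libraries follow the labels.

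With edgeR 4.0.16 (R 4.3.3), genes were filtered by expression (minimum count 10, by group), libraries scaled by TMM (0.963 to 1.04) and 1 robust quasi-likelihood model of 4 groups fitted over 12 libraries. Two-sided p-values were adjusted over all genes tested by Benjamini and Hochberg's method, and calls were made under 0.05. The SE of an edgeR difference was back-calculated, as the absolute log2 fold change divided by the square root of its F statistic. The test was checked on simulated counts. Alternatives were RLE and upper-quartile scaling, no filter, DESeq2 1.42.0, limma-voom (limma 3.58.1), TPM, leaving out libraries and a replicate block. Same-numbered libraries of a genotype deviated together (correlations 0.276, 0.125 and 0.105 in DKK1 and 0.487, 0.310 and 0.297 in wild-type mice). Correlations between different numbers were not computed, so a pairing by number is not established. The labels do not say that a number marks an animal. No pair of libraries of a group agreed within sampling noise (lowest chi-square per degree of freedom 3.98). All members were named; of the lists, the 2 genes with the smallest p per comparison could be named, and examples are printed, with Cd3d, Cd3g, Cd4, Cd247 and Ubash3a added after their values were seen. A gene of the lists is not reported here.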

Additional observations from a re-analysis of the deposited data

How the results depend on the processing

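All 8 members stayed called on the lesioned side of DKK1 mice under every alternative run. In wild-type mice 8 stayed called, except 7 without wild-type intact library 1 and 6 without both wild-type libraries numbered 1. Between genotypes in lesioned tissue the count of 2 was unchanged with other scalings and no filter, 3 in DESeq2 and limma-voom, 1 on the deposited TPM, 4 with the random replicate block, 0 to 4 when single libraries were left out and 5 without both wild-type libraries numbered 1. All 8 members kept a higher level in DKK1 mice there throughout. In intact tissue DESeq2 called 1 (Gimap8) and the other alternatives 0. The replicate block left 8 and 8 lesion calls and 0 calls in the interaction and in intact tissue. Between genotypes in lesioned tissue its random form did change calls, with 4 members against 3 in limma-voom with no block. The fixed form of the block cannot be fitted to the genotype comparisons, since numbers are nested in genotype.

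The sign was not stable for members far from passing. In intact tissue Gimap5 was −0.066 in limma-voom, −0.091 on TPM, −0.069 with the block and −0.110 without both wild-type libraries numbered 1, and Gimap4 was −0.083 on TPM. Leaving out single libraries gave −0.40 to 0.32 for Gimap1, −0.36 to 0.96 for Gimap3, −0.12 to 1.18 for Gimap4, −0.21 to 0.44 for Gimap5, −0.011 to 0.48 for Gimap6 and −0.23 to 0.37 for Gimap9. In the interaction, Gimap4 ran from −0.40 to 0.89 and was −0.12 without both libraries numbered 1, and Gimap8 ran from −0.088 to 0.25. The cause was not tested. Intact totals of 20 to 43 counts for Gimap3, Gimap4 and Gimap9, and of 0 and 1 for Gimap7, limit these comparisons.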
